A study of Mus musculus with 11 samples.

Results

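A group of 40 mouse genes that interferon is known to switch on was followed here, out of 55487 genes in the deposited table. The group was given as a list of names and comprised 25 antiviral and related effectors, 5 cytosolic nucleic acid sensors, 4 transcription factors and 6 genes of class I antigen presentation. All 40 had an entry in the table. RNA-seq expression values came from 11 C57BL/6 libraries of total RNA, in 4 groups: wild-type spinal cord (n = 3), spinal cord of Morc2a p.S87L heterozygotes (n = 3), wild-type mouse fetal fibroblasts (MEF, n = 3) and MEF of Morc2a p.S87L heterozygotes (n = 2). Morc2a encodes an ATPase of the GHKL family that acts in gene silencing, and the heterozygotes, hereafter S87L, carry 1 amino acid substitution in it. The labels give no age and leave unsaid if the libraries of one group are from different animals, embryos or cultures. Whether the spread within a group is technical or biological is therefore unknown, and the p-values measure only that spread. The table holds no allele counts, and the genotype itself was not checked.

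Type I interferons bind the receptor made of Ifnar1 and Ifnar2, and kinases on its inner side activate Stat2, which joins Irf9 in a complex that binds the interferon-stimulated response element in promoters. Interferon gamma acts through Ifngr1 and Ifngr2 on the gamma-activated site. The genes switched on hinder viral entry, RNA translation and budding, sense viral RNA, and load peptides onto class I molecules at the cell surface. In the central nervous system they are known to be active at a low level in the absence of infection, with microglia and endothelium among the responding cells.

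The promoter sequences show where the response element lies in genes that differed between genotypes. Promoters from RefSeq (build GRCm38.p6, from 250 bases before to 50 after the start site) were found for 32 of the 40 genes. The core of the element was searched as GAAANNGAAA on both strands, where overlapping matches were allowed. It was present in 16 of the 32 genes (50%), against 3.99% of the 27025 genes in the promoter table. Stretches with a match are given here for the 6 genes that were higher in S87L spinal cord and for Stat2, which was lower in S87L MEF, written along the strand of the gene with the matched bases in capitals.
Isg15 (chr4:156200855-156200916, minus strand): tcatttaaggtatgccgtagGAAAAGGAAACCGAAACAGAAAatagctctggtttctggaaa
Bst2 (chr8:71537567-71537622, minus strand): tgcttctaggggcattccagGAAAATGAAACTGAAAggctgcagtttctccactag
Ifit1 (chr19:34640765-34640833, plus strand): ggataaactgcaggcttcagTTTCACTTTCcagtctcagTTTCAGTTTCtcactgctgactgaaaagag
Ifit3 (chr19:34583353-34583436, plus strand): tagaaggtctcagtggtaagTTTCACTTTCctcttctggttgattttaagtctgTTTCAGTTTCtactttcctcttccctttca
Gbp2 (chr3:142620584-142620633, plus strand): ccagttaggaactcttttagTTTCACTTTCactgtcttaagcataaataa
B2m (chr2:122147528-122147577, plus strand): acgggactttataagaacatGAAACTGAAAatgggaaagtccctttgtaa
Stat2 (chr10:128270256-128270305, plus strand): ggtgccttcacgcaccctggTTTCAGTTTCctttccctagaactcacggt
In Isg15 there were 3 overlapping matches that began 78, 72 and 66 bases before the start site, and in Bst2 2 overlapping matches at 130 and 124 bases. Ifit1 and Ifit3 each held 2 separate matches on the opposite strand, at 104 and 85 bases in Ifit1 and at 156 and 122 bases in Ifit3. Gbp2 held 1 match at 59 bases, B2m 1 at 139 bases and Stat2 1 at 222 bases. The gamma-activated site core, TTCNNNGAA, was present in 8 of the 32 genes (25.0%, against 9.55% of all genes), among them Irf1, Ifi35, Psmb8 and Bst2. The kappa B site was present in 5 of the 32 (15.6%, against 5.14%), namely B2m, H2-K1, H2-D1, Irf1 and Bst2. A match is a run of letters and was not tested for binding. Of the 38 promoters of these genes, 32 ran into the start of an annotated transcript of the gene. Those of Stat2, Psmb8 and H2-D1 did not, so their start sites, and the 222 bases given for Stat2, are less certain.

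Values are FPKM (fragments scaled to transcript length and library size), which allow levels of different genes to be set side by side. Read counts recovered from the table gave totals of 12.1 M to 23.5 M reads per library. Spinal cord and MEF libraries held the defining transcripts of their labels, with Nefm at 262 to 297 FPKM in cord and Col1a1 at 2129 to 2442 FPKM in MEF. The MEF libraries also held macrophage transcripts, C1qb among them at 49.6 to 56.9 FPKM. In bulk tissue, fewer cells of a type and less RNA per cell cannot be told apart. The strand setting of the counting was not given, so that reads of overlapping genes on opposite strands (Rtp4 with Masp1, Irf7 with Phrf1, Tap1 with Psmb9) may be shared, and the near-identical copies Oas1a and Oas1g, Ifitm2 and Ifitm3, and H2-K1 and H2-D1 may exchange reads. Irf9 overlaps Rnf31 (mean 3.71 FPKM over the libraries) on the same strand, so its values may be affected under any strand setting.

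In wild-type cord the 40 genes were expressed at a low level, with a median of 2.03 FPKM over genes. Of the 40, 6 exceeded 10 FPKM, 21 lay between 1 and 10, and 13 lay under 1. The class I light chain B2m led with a mean of 124 FPKM, followed by the class I heavy chain H2-D1 at 29.9, the mitochondrial protein gene Ifi27 at 29.6, the membrane restriction factor Ifitm3 at 26.3, H2-K1 at 14.3 and the nucleotide kinase Cmpk2 at 10.8. In wild-type MEF the median was 1.31 FPKM, and 8 genes exceeded 10 FPKM, with Ifitm3 at 274, B2m at 212 and Ifitm2 at 59.1.

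Levels differed between the tissues in both directions. Between wild-type cord and wild-type MEF, 34 genes were tested, and 12 were higher and 13 lower in cord at an adjusted p under 0.05 by limma, against 48.1% and 40.3% of all 15811 genes tested. The division depended on the scaling, since quantile normalization gave 8 higher and 23 lower and moved the median difference of all genes from 0.13 to -0.14 on the log2 scale. Cmpk2 held 10.5, 11.1 and 10.8 FPKM in wild-type cord and 0.299, 0.388 and 0.368 in wild-type MEF, a 13.3-fold higher level in cord (log2 difference 3.73, SE 0.06, adjusted p = 1.42e-13). Ifit3, a relative of Ifit1, was 4.55-fold higher in cord, and the guanylate-binding protein gene Gbp3 2.98-fold. The reverse held for Ifitm2, which was 22.1-fold lower in cord, and for Ifitm3, which was 10.3-fold lower. The transcription factor Irf1 was 4.03-fold lower, the RNA sensor Ddx58 (RIG-I) 3.28-fold lower and Bst2 3.06-fold lower. All folds are on the scale of FPKM + 0.5, which understates the change of low genes.

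**Figure D1:**
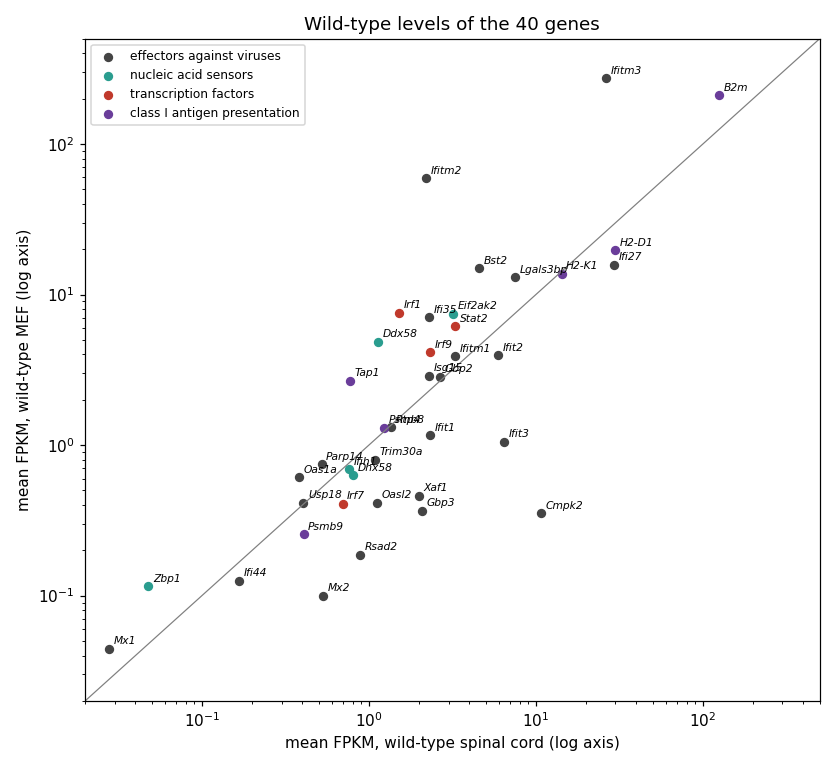
Mean FPKM of each of the 40 genes in wild-type spinal cord (horizontal, log axis, n = 3) and wild-type MEF (vertical, log axis, n = 3), coloured by role, with a grey line where both are equal. Ifitm2 and Ifitm3 lie far above the line and Cmpk2, Ifit3 and Gbp3 far below it.

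In spinal cord, 6 of the 40 genes were higher in S87L than in wild-type and 0 lower by limma (1, Ifitm3, was lower at an unadjusted p under 0.05, and by limma voom on recovered reads). Among the 6 were the ubiquitin-like modifier Isg15, the virion tether Bst2, the viral RNA binder Ifit1 and its relative Ifit3. The rest were the GTPase Gbp2 and the class I light chain B2m. Fold changes of the 6 lay between 1.18 and 1.56. Testing covered 35 of the 40, since Ifi44, Oas1a, Mx1, Zbp1 and Psmb9 lay under a mean of 0.5 FPKM. Among all 15648 genes tested, 5.17% were higher and 7.71% lower. With median ratio scaling the split over all genes was 1023 higher and 993 lower in place of 809 and 1207, and that of the 35 genes was 7 and 1. The log2 difference was positive for 23 of the 35 and negative for 12, with a median of 0.08 against -0.02 over all genes tested.

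Isg15, whose product is attached to other proteins, held 1.96, 2.31 and 2.62 FPKM in the wild-type cords and 3.69, 4.26 and 3.58 in the S87L cords. The S87L cords lay above the wild-type cords with no overlap. Here and below a lack of overlap only describes the values, and its share over all genes was not counted. These values rest on few reads, 24 to 27 in the wild-type and 47 to 68 in the S87L libraries. The log2 difference was 0.64 (SE 0.10, adjusted p = 0.0090 by limma), a 1.56-fold higher level.

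Bst2 encodes tetherin, which holds budding virions at the cell surface. Its level was 4.46, 4.64 and 4.54 FPKM in wild-type cords and 6.42, 5.95 and 6.46 in S87L cords. Wild-type cords were within 0.2 FPKM of each other, and every S87L cord lay above them. Bst2 rose by 0.42 on the log2 scale (SE 0.05, adjusted p = 0.00285). The calls on Isg15 and Bst2 were kept in each of the 6 fits that left out 1 cord library, with adjusted p of 0.0142 to 0.0358 for Isg15 and 0.00926 to 0.0193 for Bst2.

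The Ifit genes, which lie side by side on chromosome 19, did not all move. Ifit1 held 2.43, 2.32 and 2.24 FPKM in wild-type and 3.27, 3.30 and 2.86 in S87L cords, without overlap (log2 difference 0.36, SE 0.07, adjusted p = 0.0162). For Ifit3 the values were 6.04, 6.16 and 7.24 FPKM in wild-type and 7.86, 7.77 and 9.02 in S87L cords, again without overlap (0.32, SE 0.08, adjusted p = 0.0466). Ifit2, the neighbour of Ifit3, was at 5.48, 6.08 and 6.19 (wild-type) and 5.69, 5.76 and 6.16 (S87L) FPKM, and these groups overlapped (log2 difference -0.01, adjusted p = 0.94). The Ifit1 call was lost without wild-type library 3 (adjusted p = 0.0577), S87L library 1 (0.066) or S87L library 2 (0.0705). The Ifit3 call was kept only without wild-type library 3 (0.0344), and the other 5 fits that left out 1 library gave 0.0875 to 0.125.

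Gbp2, a GTPase that attacks the vacuoles of intracellular pathogens, held 2.68, 2.96 and 2.39 FPKM in wild-type and 3.29, 3.46 and 3.64 in S87L cords. The lowest S87L value exceeded the highest wild-type value (log2 difference 0.32, SE 0.08, adjusted p = 0.0358). The call was kept only without wild-type library 2 (0.033), and the other 5 fits gave 0.0702 to 0.11. Its relative Gbp3 was at 1.96, 2.03 and 2.24 (wild-type) and 2.41, 2.31 and 2.67 (S87L) FPKM, also without overlap, and did not pass (log2 difference 0.20, SE 0.07, adjusted p = 0.121).

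Among effectors that did not pass in cord, Ifitm3, Usp18 and Parp14 came closest. Ifitm3, which blocks fusion of viruses in endosomes, held 28.4, 24.2 and 26.2 FPKM in wild-type and 22.6, 22.6 and 20.1 in S87L cords, and here the S87L cords were the lower ones (-0.27, SE 0.07, adjusted p = 0.0504). Usp18, the protease that removes Isg15 from its targets and dampens the receptor, was at 0.534, 0.412 and 0.269 (wild-type) and 0.656, 1.06 and 0.883 (S87L) FPKM, with 11 to 27 reads in wild-type and 36 to 67 in S87L libraries (0.59, SE 0.16, adjusted p = 0.053). The groups did not overlap for either gene. The ADP-ribosyltransferase gene Parp14 was at 0.445, 0.552 and 0.565 (wild-type) and 0.683, 0.818 and 0.886 (S87L) FPKM, likewise apart (0.34, SE 0.11, adjusted p = 0.0905). With limma voom on the recovered reads, chosen after seeing the data, Usp18 and Parp14 passed as higher (adjusted p = 0.0127 and 0.00497) and Ifitm3 as lower (0.043).

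For other effectors the log2 differences in cord lay between -0.12 for Ifitm1 and 0.33 for Ifitm2, with adjusted p from 0.216 to 0.991. Cmpk2, the most abundant of them beside Ifi27 and Ifitm3, differed by 0.08 (SE 0.04), Ifi27 by -0.03 (SE 0.04), the viral replication inhibitor Rsad2 (viperin) by -0.05 and the GTPase gene Mx2 by -0.03.

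Of 8 sensors and transcription factors tested in cord 0 passed in limma, nor was any at an unadjusted p under 0.05. Of the sensors, Ddx58 differed by 0.13 (SE 0.08), Ifih1 (MDA5) by 0.03, Dhx58 (LGP2) by -0.15 and the RNA-activated kinase gene Eif2ak2 (PKR) by 0.07. Of the factors, Irf7, which drives interferon genes, differed by 0.15, Irf1 by -0.04, Irf9 by -0.06 and Stat2 by -0.12. All 8 adjusted p lay between 0.264 and 0.828.

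Among the class I presentation genes of the followed group, only the light chain passed in cord. B2m held 123, 118 and 132 FPKM in wild-type and 145, 144 and 149 in S87L cords, with no overlap and with 1505 to 1916 reads in wild-type and 2399 to 2808 in S87L libraries (log2 difference 0.23, SE 0.04, adjusted p = 0.0169). Leaving out S87L library 1, 2 or 3 ended the call (adjusted p = 0.0587, 0.0542 and 0.0523). Heavy chain genes overlapped between genotypes. H2-K1 was at 15.8, 14.5 and 12.5 (wild-type) and 15.5, 15.2 and 13.4 (S87L) FPKM (0.04, SE 0.09), and H2-D1 at 31.8, 28.7 and 29.3 (wild-type) and 30.3, 32.7 and 28.4 (S87L) (0.02, SE 0.06). Tap1, a subunit of the peptide transporter, was at 0.827, 0.716 and 0.773 FPKM in wild-type and 0.557, 0.764 and 0.773 in S87L cords (-0.09, SE 0.11). The immunoproteasome subunit gene Psmb8 was at 1.18, 1.22 and 1.31 (wild-type) and 1.49, 1.72 and 1.12 (S87L) (0.15, SE 0.12), and Psmb9, too low to be tested, at 0.347, 0.462 and 0.411 (wild-type) and 0.403, 0.349 and 0.366 (S87L). None of the 4 tested passed, with adjusted p of 0.453 to 0.831.

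**Figure D2:**
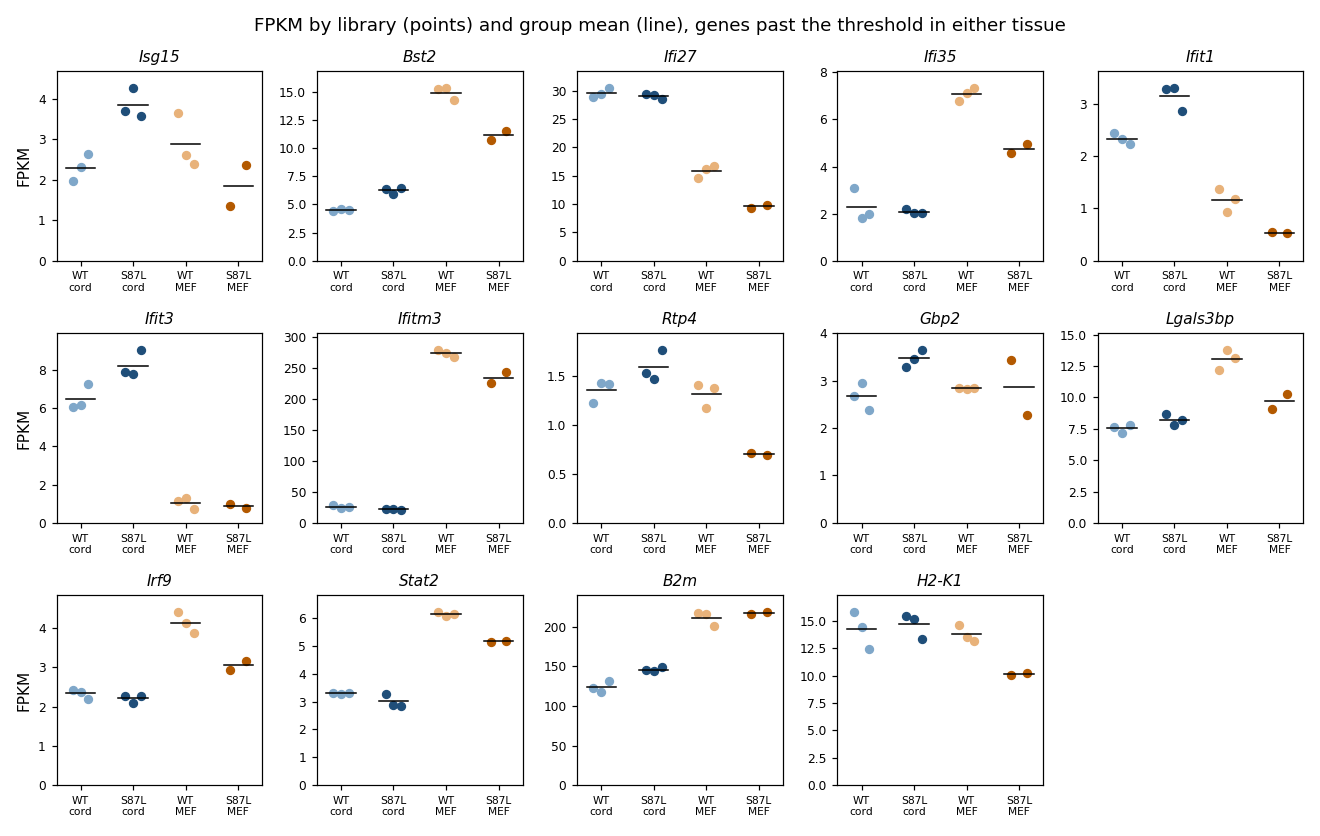
FPKM (vertical axis, from 0) of the 14 genes past the threshold in either tissue, 1 point per library and a line at the mean of each group (n = 3, 3, 3 and 2). Bst2 and Ifit1 are higher in S87L cord and lower in S87L MEF, while Ifi27, Ifi35, Irf9 and H2-K1 are apart in MEF and overlap in cord.

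Other cell type markers moved with genotype in the same cord libraries. The 19 microglia and macrophage markers summed to 393 to 413 FPKM in wild-type and 487 to 495 in S87L cords, and 12 of the 18 tested were higher. Tmem119, a microglial marker, held 12.5, 12.6 and 12.4 FPKM in wild-type and 16.1, 15.02 and 14.6 in S87L cords, whereas Cx3cr1, another, held 11.8, 11.7 and 11.3 (wild-type) and 10.5, 10.6 and 10.4 (S87L). The 11 markers of meninges and fibroblasts summed to 29.96 to 31.6 FPKM in wild-type and 55.03 to 56.3 in S87L cords (8 of 10 tested higher), the 12 of skeletal muscle to 142 to 156 and 213 to 219.8 (11 of 12 higher) and the 5 of red blood cells to 336 to 371 and 409 to 447 (3 of 5 higher). Endothelial markers summed to 80.3 to 84.8 and 83.2 to 85.2 FPKM, with 2 of 11 higher and 1 lower. Neutrophil and monocyte markers summed to 31.4 to 35.4 and 25.8 to 29.5 FPKM, with 0 of the 4 tested past the limma threshold (unadjusted p under 0.05 for 1). Markers of T, B and NK lymphocytes were near 0, with sums of 0.307 to 0.675 FPKM over the 6 cord libraries and none high enough to test. The part of these cell types in the interferon gene differences was not tested.

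In MEF the direction was the other one. Of the 40 genes, 10 were lower in S87L MEF and 0 higher by limma (2, Ifit2 and Eif2ak2, were higher at an unadjusted p under 0.05, and 0 by limma voom). The 10 were the effectors Ifi27, Ifit1, Rtp4, Ifi35, Lgals3bp, Bst2 and Ifitm3, the transcription factors Irf9 and Stat2, and the class I heavy chain H2-K1, with levels 1.17- to 1.62-fold lower. In MEF 28 of the 40 were tested, and among all 13773 genes tested 6.32% were lower and 4.91% higher. The log2 difference was negative for 24 of the 28 and positive for 4, with a median of -0.21 against -0.01 over all genes tested. With 2 S87L MEF libraries the spread within that group is estimated from a single difference.

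Ifi27, a mitochondrial protein gene with a known role in cell death, held 14.6, 16.2 and 16.7 FPKM in wild-type and 9.24 and 9.91 in S87L MEF. Both S87L libraries lay below all wild-type ones, and Ifi27 fell by 1.62-fold (log2 difference -0.69, SE 0.07, adjusted p = 0.00298). Ifi35, a partner of Nmi in cytokine signalling, was at 6.78, 7.14 and 7.33 FPKM in wild-type and 4.57 and 4.94 in S87L MEF (-0.53, SE 0.06, adjusted p = 0.00479). Bst2 was at 15.2, 15.4 and 14.3 (wild-type) and 10.8 and 11.6 (S87L) FPKM (-0.41, SE 0.06, adjusted p = 0.00892). The groups did not overlap for Ifi35 or Bst2, and the calls on Ifi27, Ifi35 and Bst2 were kept in each of the 5 fits that left out 1 MEF library.

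Ifit1 held 1.38, 0.939 and 1.18 FPKM in wild-type and 0.546 and 0.525 in S87L MEF, with 34 to 50 reads in wild-type and 16 to 20 in S87L libraries (-0.68, SE 0.15, adjusted p = 0.0354). Rtp4, a chaperone of receptors that also binds viral RNA, was at 1.41, 1.17 and 1.37 (wild-type) and 0.714 and 0.695 (S87L) FPKM (-0.59, SE 0.11, adjusted p = 0.0252). Both S87L libraries lay below the wild-type ones for either gene. The Ifit1 call was kept only without wild-type library 2 (adjusted p = 0.046), and the others gave 0.0934 to 0.112. Rtp4 kept no call when any of the 5 libraries was left out (0.0531 to 0.0956).

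Lgals3bp, a secreted glycoprotein gene, was at 12.2, 13.8 and 13.2 FPKM in wild-type and 9.06 and 10.3 in S87L MEF (-0.41, SE 0.08, adjusted p = 0.0221). Ifitm3, the most abundant of the effectors in MEF, was at 279, 274 and 268 (wild-type) and 225 and 244 (S87L) FPKM (-0.22, SE 0.05, adjusted p = 0.031). Neither gene overlapped between genotypes. Lgals3bp lost its call without wild-type library 2 (0.0752) or 3 (0.0792) or S87L library 1 (0.0811), and Ifitm3 without wild-type library 1 (0.115), 2 (0.123) or 3 (0.0869) or S87L library 1 (0.057).

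Isg15, higher in S87L cord, did not pass in MEF. Its values were 3.65, 2.61 and 2.38 FPKM in wild-type and 1.34 and 2.35 in S87L MEF, from 24 to 35 and 13 to 19 reads. The S87L values were the lower ones, but the highest of them came within 0.03 FPKM of the lowest wild-type value (-0.54, SE 0.25, adjusted p = 0.231). Ifit3 was at 1.13, 1.30 and 0.718 (wild-type) and 0.997 and 0.798 (S87L) FPKM and Gbp2 at 2.85, 2.83 and 2.85 (wild-type) and 3.43 and 2.28 (S87L), and both overlapped between genotypes.

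Ifit2 differed in sign from its neighbours in MEF. It held 4.16, 3.75 and 3.97 FPKM in wild-type and 4.52 and 4.90 in S87L MEF, with the S87L libraries above, and did not pass (0.22, SE 0.07, adjusted p = 0.0894). Ifitm1, a surface relative of Ifitm3, was at 3.75, 4.09 and 3.82 (wild-type) and 3.38 and 3.42 (S87L) FPKM (-0.17, adjusted p = 0.15). The remaining tested effectors in MEF, Ifitm2, Oas1a, Trim30a and Parp14, gave log2 differences of -0.10, -0.33, 0.02 and -0.18 and adjusted p of 0.298 to 0.947.

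Of the 4 sensors tested in MEF 0 passed in limma, with Ddx58 and Eif2ak2 at an unadjusted p under 0.05. Ddx58, the RIG-I gene, held 5.04, 4.79 and 4.72 FPKM in wild-type and 4.22 and 4.21 in S87L MEF, without overlap (-0.18, SE 0.06, adjusted p = 0.0988). Ifih1 differed by -0.21, Dhx58 by -0.12 and Eif2ak2 by 0.14. Eif2ak2 was at 7.57, 7.17 and 7.64 FPKM in wild-type and 8.09 and 8.43 in S87L MEF, with the S87L libraries above the wild-type ones, and did not pass (adjusted p = 0.152).

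Of the 4 transcription factors, Irf9 and Stat2 fell in MEF. Irf9, the DNA-binding subunit, held 4.40, 4.13 and 3.88 FPKM in wild-type and 2.95 and 3.17 in S87L MEF (-0.38, SE 0.07, adjusted p = 0.0256). Stat2, its partner, was at 6.21, 6.09 and 6.17 (wild-type) and 5.16 and 5.19 (S87L) FPKM (-0.23, SE 0.05, adjusted p = 0.0348). Neither overlapped. The Irf9 call was kept only without S87L library 2 (0.0431), and the other 4 fits gave 0.056 to 0.0963. Stat2 was lost in all 5 (0.0594 to 0.117), although its difference stayed between -0.24 and -0.22. Irf1 differed by -0.11 in MEF (adjusted p = 0.371).

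For class I presentation in MEF the heavy chain fell while the light chain did not pass. H2-K1 held 14.6, 13.5 and 13.2 FPKM in wild-type and 10.1 and 10.3 in S87L MEF, without overlap (-0.42, SE 0.06, adjusted p = 0.00856, and kept in each of the 5 fits that left out 1 library). H2-D1 was at 20.1, 18.2 and 20.6 (wild-type) and 16.2 and 17.4 (S87L) FPKM, also apart, and did not pass (-0.22, SE 0.07, adjusted p = 0.084). B2m was at 217, 216 and 202 (wild-type) and 216 and 218 (S87L) FPKM, and its groups overlapped (0.04, SE 0.05, adjusted p = 0.612).

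Of the peptide supply genes in the followed group, Tap1 and Psmb8 were tested in MEF and neither passed. Tap1 was at 2.85, 2.60 and 2.61 FPKM in wild-type and 2.32 and 2.34 in S87L MEF (-0.17, adjusted p = 0.191), and Psmb8 at 1.32, 1.39 and 1.21 (wild-type) and 1.03 and 1.11 (S87L) (-0.20, adjusted p = 0.252), both with S87L below. Psmb9 was at 0.140, 0.321 and 0.304 (wild-type) and 0.139 and 0.143 (S87L) and was too low to be tested.

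In the MEF libraries the microglia and macrophage markers summed to 337 to 342 FPKM in wild-type and 288 to 302 in S87L, with 2 of 17 tested lower, Tmem119 and Cx3cr1. Of the 17, 16 had a negative difference, and 11 had an unadjusted p under 0.05 in either direction. Tmem119 is also known in cells of mesenchymal origin. Markers of meninges and fibroblasts summed to 3818 to 3842 FPKM in wild-type and 3306 to 3570.3 in S87L MEF, with 4 of 9 lower. Endothelial markers summed to 18.1 to 19.1 FPKM in wild-type and 14.2 to 15.3 in S87L MEF, with Tek and Ly6c1 lower of 5 tested. The part of these shifts in the MEF differences was not tested.

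**Figure D3:**
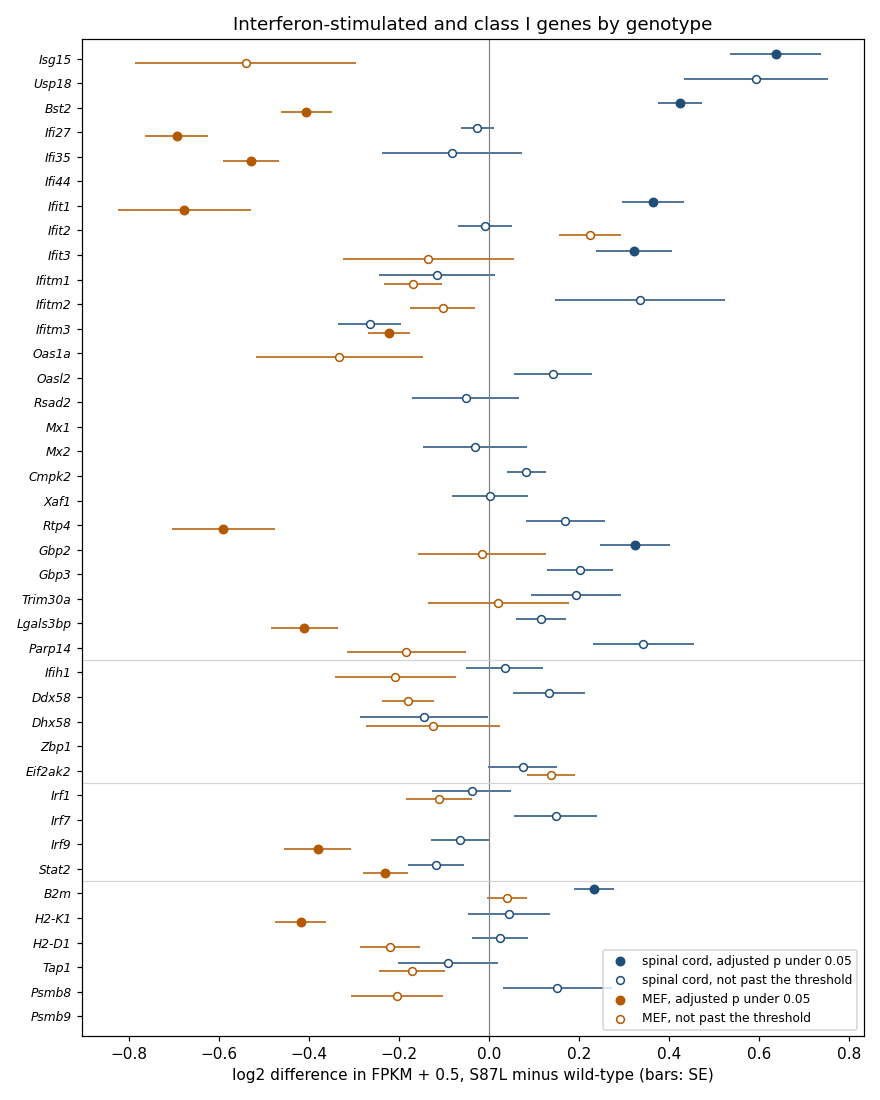
Log2 difference of FPKM + 0.5 between S87L and wild-type libraries for each tested gene, in spinal cord (blue) and MEF (orange), with bars of 1 SE and filled points for an adjusted p under 0.05. Grey lines part effectors, sensors, transcription factors and class I genes. Filled blue points lie to the right of 0 (6 genes) and filled orange points to the left (10 genes).

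The genotype effect differed between the tissues for 10 of the 34 genes tested for it, by an interaction term over all 11 libraries. All 10 effects were more negative in MEF and 0 more positive (1, that of Ifit2, at an unadjusted p under 0.05, and 0 by limma voom), against 6.98% of the 15811 genes tested that were more negative and 6.14% that were more positive. In log2 units the difference, MEF minus cord, was for Isg15 -1.18 (SE 0.27, adjusted p = 0.0195), for Ifit1 -1.04 (SE 0.14, adjusted p = 0.00102) and for Bst2 -0.83 (SE 0.07, adjusted p = 6.62e-05). Rtp4 gave -0.76, Ifi27 -0.67, Parp14 -0.53, Lgals3bp -0.53, H2-K1 -0.46, Irf9 -0.32 and Ddx58 -0.31. The calls on Bst2, Ifi27, Ifit1, Rtp4 and Lgals3bp were kept in each of the 11 fits that left out 1 library. Isg15 was lost without S87L MEF library 1 (adjusted p = 0.0583), and Parp14, Ddx58, Irf9 and H2-K1 were lost in 6, 8, 9 and 7 of the 11, with adjusted p of up to 0.0778, 0.0876, 0.149 and 0.0966.

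Bst2 and Ifit1 passed in both tissues, higher in S87L cord and lower in S87L MEF. Over the 27 genes tested in both tissues, 14 were positive in cord and negative in MEF, 3 positive in both, 9 negative in both and 1 negative in cord and positive in MEF. Among all 12389 genes tested in both, 23% were positive in cord and negative in MEF. Ifitm3 and Stat2 were among those negative in both. Of the 6 genes higher in cord all held the response element core in their promoter, and of the 8 promoters found for genes lower in MEF 4 did (Bst2, Ifit1, Ifitm3 and Stat2). Those of Ifi35, Lgals3bp, Irf9 and H2-K1 held no exact match, and looser forms of the element were not searched. Among all 32 genes of the group with a promoter, 16 (50%) held the core.

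The inputs of the pathway were examined beside these genes. All 9 type I and type III interferon genes examined were listed at 0 in all 11 libraries, and Ifng was listed at 1 read in 1 wild-type and 1 S87L cord. Of the 6 receptor genes 5 were tested, and 0 passed in limma in either tissue (unadjusted p under 0.05 for 0 in cord and 1 in MEF). Ifnar1 held 6.51, 7.12 and 6.70 FPKM in wild-type and 6.91, 6.91 and 7.01 in S87L cords, and 20.1, 18.6 and 19.8 (wild-type) and 19.2 and 18.0 (S87L) in MEF. Differences of Ifnar2, Ifngr1, Ifngr2 and Il10rb were -0.01, 0.08, 0.09 and -0.05 in cord and 0.05, -0.17, 0.09 and -0.12 in MEF on the log2 scale. Of the signalling and feedback genes, 11 were tested in cord and 12 in MEF. Irf2bp2, a corepressor that binds Irf2, was higher in cord (0.24, adjusted p = 0.0259), and 0 passed in limma in MEF (unadjusted p under 0.05 for 1).

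Among nucleic acid sensing genes upstream of interferon, 2 of 20 tested were higher and 1 lower in cord, and 1 of 21 higher and 1 lower in MEF. Over all genes tested, 5.17% were higher and 7.71% lower in cord, and 4.91% and 6.32% in MEF. Counts this small do not set the list apart from all genes. These shares also apply to the lists below. The endosomal RNA receptor Tlr7 held 1.15, 1.08 and 1.17 FPKM in wild-type and 2.34, 2.26 and 2.48 in S87L cords, with no overlap (0.81, SE 0.07, adjusted p = 0.000779). The antiviral zinc finger gene Zc3hav1 rose by 0.35 (adjusted p = 0.0247), and Tlr3, the receptor for double-stranded RNA, fell, with a log2 difference of -0.26 (adjusted p = 0.0411). In MEF the signalling ligase gene Trim25 was lower (-0.37, adjusted p = 0.0243) and Tank higher (0.37, adjusted p = 0.0301).

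Of 60 further interferon-stimulated genes, 34 were tested in cord, where 2 were higher, and 31 in MEF, where 1 was lower. Ifi27l2a, a relative of Ifi27, held 3.82, 2.92 and 3.84 FPKM in wild-type and 7.90, 10.3 and 6.25 in S87L cords (1.08, SE 0.17, adjusted p = 0.00889), and Samd9l, a translation inhibitor, 1.30, 1.51 and 1.61 (wild-type) and 2.29, 2.53 and 2.56 (S87L) (0.59, SE 0.08, adjusted p = 0.00558). In MEF the lower gene was Nmi, the partner of Ifi35, at 2.93, 3.37 and 2.92 (wild-type) and 1.74 and 1.96 (S87L) FPKM (-0.61, adjusted p = 0.0118). These counts are to be read against 5.17% of all genes higher in cord and 6.32% lower in MEF, and on that scale the list held no excess of calls. Median differences of this list were 0.04 in cord and -0.14 in MEF, against -0.02 and -0.01 over all genes tested. In cord 21 of the 34 differences were positive, and in MEF 27 of the 31 were negative. An unadjusted p under 0.05 by limma, in either direction, was found for 4 in cord and 13 in MEF. Over all genes the shares at that limit were 29.05% and 27.95%.

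Of 17 further class I presentation genes, 14 were tested in each tissue. In cord the peptide-loading chaperones Calr and Pdia3 were higher, by 0.15 and 0.15 (adjusted p = 0.0169 and 0.0456). In MEF 4 were lower, namely the class I gene H2-Q4 (-0.51, adjusted p = 0.0108), the loading factor Tapbp (-0.38, adjusted p = 0.00505), the proteasome activator Psme2 (-0.39, adjusted p = 0.0223) and the immunoproteasome subunit Psmb10 (-0.25, adjusted p = 0.0259). Of the 7 constitutive proteasome beta subunits 0 passed in limma in either tissue (unadjusted p under 0.05 for 1 in cord and 0 in MEF).

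Class II presentation genes, which professional antigen-presenting cells express, were higher in S87L cord in 4 of 6 cases tested. The invariant chain Cd74 held 2.66, 1.45 and 1.95 FPKM in wild-type and 4.99, 5.11 and 4.62 in S87L cords (1.13, SE 0.16, adjusted p = 0.00589). H2-Aa, H2-Eb1 and H2-Ab1 rose by 0.74, 0.74 and 0.61. Their groups were apart in every case, which adds little to calls made on the same values. The macrophage markers Cd163, Lyve1 and Mrc1, singled out after their values were seen, were also higher, by 0.89, 0.85 and 0.60. Over all 18 microglia and macrophage markers tested in cord the median difference was 0.34, with 16 positive and 2 negative. Of these 18, 12 passed as higher and 6 did not pass. In MEF 2 class II genes were tested, and 0 passed in limma (unadjusted p under 0.05 for 0).

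**Figure D4:**
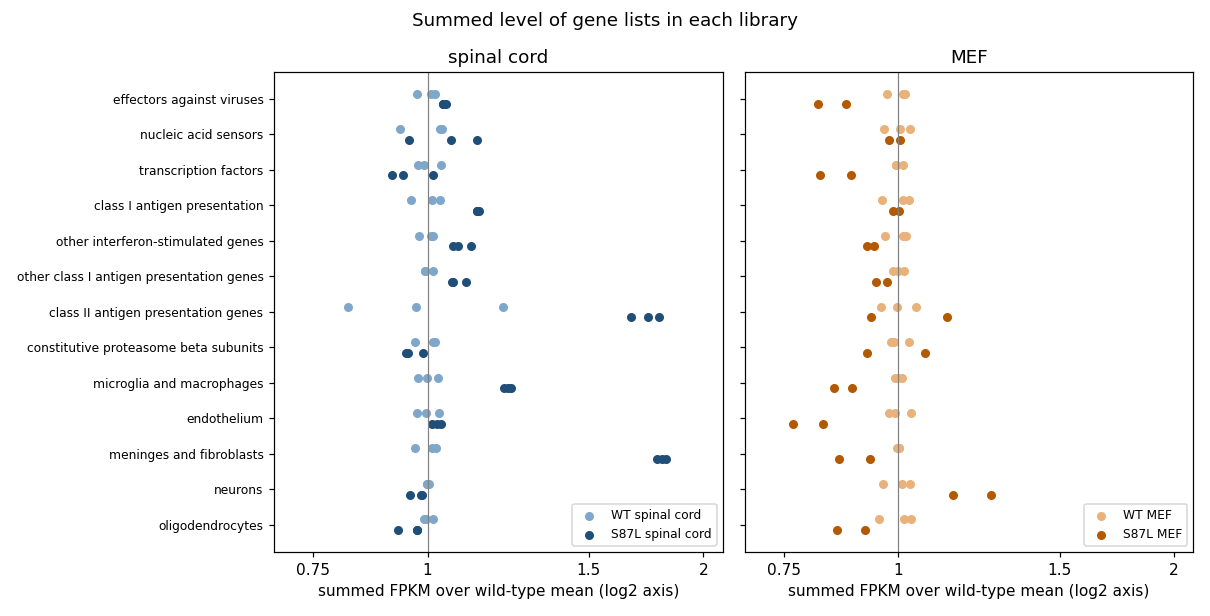
Summed FPKM of each list in each library, divided by the wild-type mean of the same tissue (log2 axis), in spinal cord (left) and MEF (right), with 1 point per library. In cord the class II, meninges and microglia lists are farther from 1 than the 4 interferon and class I groups, and in MEF the effectors and transcription factors of S87L lie below 1. Also below 1 in S87L MEF are the endothelium, microglia, meninges and oligodendrocyte lists. The same holds for the lists of other interferon-stimulated and other class I genes.

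Ifi44, Mx1, Zbp1 and Psmb9, tested in neither tissue, were low in all libraries. Mx1, an antiviral GTPase gene that is defective in many laboratory strains, had 2, 2 and 1 reads in wild-type and 2, 8 and 4 in S87L cords, and 1, 3 and 3 (wild-type) and 3 and 0 (S87L) in MEF. Zbp1, a sensor of Z-form nucleic acid, had 3, 2 and 3 (wild-type) and 3, 8 and 6 (S87L) reads in cord, and 7, 3 and 7 (wild-type) and 2 and 4 (S87L) in MEF. Ifi44 was at 0.180, 0.154 and 0.167 FPKM in wild-type and 0.199, 0.230 and 0.149 in S87L cords. Differences between genotypes were not detectable for these genes at this depth. Tested in cord alone were Usp18, Oasl2, Rsad2, Mx2, Cmpk2, Xaf1, Gbp3 and Irf7, and in MEF alone Oas1a. Each of those 8 had a mean under 0.5 FPKM in MEF.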

How the data were processed

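Gene-level FPKM values were deposited by the authors for 11 libraries. The submitters' processing notes list Trimmomatic 0.39, HISAT2 2.2.1, Picard 2.25.5, HTSeq 0.11.3 and GRCm38, and the strand and overlap settings of the counting are not given in the sources. Ensembl identifiers were matched to GENCODE M21, and 260 of 55487 had no entry. Reads were recovered from the deposited FPKM with the exon length of each gene, and 98.5% to 98.6% of values came out within 0.05 of a whole number. For Isg15 a length of 703 bases in place of 756 gave whole reads. Values were tested as log2(FPKM + 0.5) with limma 3.58.1 (R 4.3.3; trend and robust), per tissue, over genes with a mean of at least 0.5 FPKM, and with an interaction term over all libraries. P-values were adjusted (Benjamini-Hochberg) over all genes tested, at a threshold of 0.05. Figures used matplotlib 3.10.9. The code was tested on simulated data with 200 changed genes.

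The genes and lists were chosen with earlier results of these data known. Per-library values are given for those of the 40 genes past the threshold, for the class I genes among them and for the 4 others with the smallest p in each tissue. Further pathway lists are given by counts and by values for at most 4 called genes, and receptors by their differences. One gene is not reported here. Alternatives were the pseudocount, the filter, 2 scalings, library weights, a replicate block, leaving out each library, and, chosen after seeing the data, limma voom on recovered reads.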

Additional observations from a re-analysis of the deposited data

Results flagged for a closer look

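For 10 genes the effect of the S87L genotype differed between MEF and spinal cord by the interaction term (adjusted p under 0.05 by limma), and each was more negative in MEF. In log2 units, MEF minus cord, the values were -1.18 for Isg15, -1.04 for Ifit1, -0.83 for Bst2, -0.76 for Rtp4, -0.67 for Ifi27, -0.53 for Parp14, -0.53 for Lgals3bp, -0.46 for H2-K1, -0.32 for Irf9 and -0.31 for Ddx58. Isg15, Bst2, Ifit1, Rtp4, Parp14 and Ddx58 had every S87L cord above the wild-type cords and both S87L MEF libraries below the wild-type ones. For Ifi27, Lgals3bp, H2-K1 and Irf9 the genotypes overlapped in cord and were apart in MEF. The 10 genes were picked on these same values, so that their separation adds no support. The share of all genes set apart in this way was not counted. Groups of 2 or 3 libraries are too small for a test of single outlying libraries.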

How the results depend on the processing

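Fits that left out 1 library gave 2 to 5 genes higher and 0 to 1 lower in cord (6 and 0 with all libraries; 2 without S87L library 1 or 2, 3 without S87L library 3), 4 to 7 lower in MEF (10 with all; 4 without wild-type library 3 or S87L library 1, 5 without wild-type library 1 or 2) and 6 to 10 with a more negative effect in MEF (10 with all). The lone S87L MEF library was then assumed to vary like the wild-type ones. In cord 1 gene, Ifitm3, became lower with a filter at a mean of 1 FPKM, quantile normalization, median ratio scaling, library weights and limma voom on recovered reads. In MEF 4 remained lower with no filter on low values. In the interaction Ifit1 exceeded Isg15 in size with a pseudocount of 0.1 (-1.40 and -1.36), with limma voom (-1.53 and -1.45) and without S87L MEF library 1 (-1.06 and -0.86). With quantile normalization 23 genes were lower in wild-type cord than in wild-type MEF, in place of 13.

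Libraries share replicate numbers, but deviations from the group means of same-numbered cord libraries correlated at 0.15, -0.05 and 0.11, and those of MEF at -0.07 and -0.03. Not every cord library correlated best with its own number, and the numbers were not taken as pairs. With the replicate block 5 genes were higher in cord, 1 was lower in MEF (Ifi27; calls lost included Ifi35, Bst2 and H2-K1 at adjusted p = 0.0573, 0.0636 and 0.0697) and 7 were more negative in MEF. Over all genes the block left 53 higher and 129 lower in MEF, in place of 676 and 871. In the interaction it left 397 more positive and 633 more negative, in place of 971 and 1104. No S87L MEF library has the number of wild-type MEF library 3, so the block set that library aside. The MEF differences were then those of the fit without it (Bst2 -0.44 and a median of -0.23 over the group, in both). The block also left less spread to estimate from, so the fall in MEF calls cannot be read as an effect of the numbering alone.

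Over all genes, library weights gave 1331 higher and 1767 lower in cord (809 and 1207 otherwise). Limma voom gave 1258 and 1629 in cord and 1361 and 1416 in MEF, and no filter 327 and 461 in MEF. Leaving out 1 library gave 344 to 758 higher and 494 to 879 lower in cord, 202 to 829 and 363 to 924 in MEF, and 554 to 1040 more positive in the interaction. Depth limits genes with few reads, such as Isg15 in MEF.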

Other observations

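Some neighbouring genes of the group differed in level or in response to genotype. On chromosome 19 (GRCm38) Ifit2 (chr19:34550694-34576419), Ifit3 (chr19:34583531-34588731) and Ifit1 (chr19:34640871-34650009) lie on the plus strand. In S87L cord Ifit1 and Ifit3 were both higher (0.36 and 0.32 on the log2 scale) and Ifit2 differed by -0.01. In S87L MEF Ifit1 was lower by -0.68 on the log2 scale, while Ifit3 differed by -0.13 and Ifit2 by 0.22, and neither of these passed. The response element core was found in the RefSeq promoter windows of Ifit1 and Ifit3. It was not found in those of Ifit2 (chr19:34550444-34550743 and chr19:34550838-34551137). Both lie at the first bases of the Ifit2 span, and the later one did not run into the start of an annotated Ifit2 transcript. Start sites farther along were not searched, so the element may lie outside these windows. The difference between these genes was not tested.

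On chromosome 12 Cmpk2 (chr12:26469204-26479837) and Rsad2 (chr12:26442746-26456452) lie close together on opposite strands. Cmpk2 was at 10.5, 11.1 and 10.8 FPKM in wild-type cords and Rsad2 at 0.968, 0.686 and 1.01, whereas in wild-type MEF Cmpk2 was at 0.299, 0.388 and 0.368 and Rsad2 at 0.0676, 0.237 and 0.257. On chromosome 7 Ifitm2 and Ifitm3 were much higher in wild-type MEF than in wild-type cord (log2 differences, cord minus MEF, -4.46 and -3.36), while Ifitm1 between them differed by -0.22 (adjusted p = 0.0824).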
